A study of Mus musculus with 45 samples.

Results

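Mouse embryonic fibroblasts (MEFs) labelled as p53 knockout (p53KO) were compared after 8 h and after 3 h of the inflammatory cytokines interleukin-1 beta (IL-1b) and tumour necrosis factor (TNF). The comparison takes every library labelled p53KO, IL-1b or TNF, and 8 h or 3 h, which gave 8 of the 45 libraries of the study. The question it answers is which genes were still rising late in the response and which had already turned down. The 4 groups were p53KO MEFs after 8 h of IL-1b, 8 h of TNF, 3 h of IL-1b and 3 h of TNF, with 1 library of line KO-1 and 1 of line KO-2 in each group. All cells were primary embryonic fibroblasts of strain C57BL/6, p53-/- in genotype, kept overnight in low serum and then given 10 ng/ml of either cytokine. The labels do not say whether KO-1 and KO-2 came from separate embryos, so the p-values measure the spread between these libraries, part of which may be technical. No culture kept without a cytokine for 3 or 8 h was analysed here, so the passing of time in low serum cannot be told apart from the response to the cytokine. Libraries of the same lines at 0 h, of the same lines with 100 ng/ml of lipopolysaccharide (LPS, a component of bacterial outer membranes), and of 1 WT line with 1 library per group were used for reference.

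IL-1b and TNF bind different receptors but both activate NF-kB, a dimeric transcription factor held in the cytoplasm by IkB proteins, and the MAP kinases. Among the first genes that NF-kB switches on are its own inhibitors, the IkB protein Nfkbia and the ubiquitin-editing enzyme Tnfaip3, which close a negative feedback loop. Many early transcripts carry AU-rich elements and are short-lived, so their level follows transcription closely. Stable transcripts, and genes that need newly made proteins for their induction, can go on accumulating for hours. Fibroblasts are a source of chemokines, matrix-degrading proteases and acute phase proteins in inflamed tissue.

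Gene counts totalled 5619870 to 13888966 per library at 8 h and 7780415 to 9658248 at 3 h, and 16324 to 17685 genes had at least 1 read in a library. The 10 most abundant genes took 6.18 to 6.4% of the counts at 8 h and 6.83 to 7.46% at 3 h, and mitochondrial genes took 0.219 to 0.552% at 8 h and 0.411 to 0.702% at 3 h; the part of these shares in the results was not tested. Trp53 had 83.3 and 82.1 CPM (read counts scaled to a common library size) with IL-1b and 86.5 and 82.3 CPM with TNF at 8 h, against 72.5 and 70.9 CPM with IL-1b and 80.5 and 83.1 CPM with TNF at 3 h. Each of these levels lay below the WT levels at the same times, which were 244 and 293 CPM at 8 h and 223 CPM in both 3 h libraries. Reads of Trp53 were therefore present in the p53KO lines, and the deleted part is not given in the labels. Marker counts are read against all genes tested, of which 24.2% rose and 23.6% fell between 3 and 8 h. The 15 fibroblast markers summed to 25000 to 26400 CPM at 8 h and 26300 to 32200 CPM at 3 h, and 5 rose (33.3%) while 6 fell (40%). Macrophage markers summed to 491 to 608 CPM at 8 h and 492 to 646 CPM at 3 h, and 2 of 15 rose (13.3%) while 7 fell (46.7%). The complement genes C1qa, C1qb and C1qc were among the falls, and Itgam was among the rises (log2 change 0.55). Endothelial markers summed to 15.6 to 20.7 CPM at 8 h against 29.3 to 31.6 CPM at 3 h (1 of 6 tested, Cdh5, rose and 3 fell, with Tie1 at 0), epithelial markers to 46.6 to 57.4 CPM at 8 h against 74.6 to 88.1 CPM at 3 h (4 of 5 fell), muscle markers to 86.2 to 140 CPM at 8 h against 143 to 165 CPM at 3 h (2 of 2 fell, with Ckm at 0), and neural markers to 63 to 77.2 CPM at 8 h against 76.2 to 80.9 CPM at 3 h (1 of 4 fell). The rise of Cdh5 was lost without the KO-2 library of any of the 4 groups. Of 6 erythroid markers, 5 were at 0 in every one of the 8 libraries. The part of these markers in the results was not tested, and fewer cells of a type cannot be told apart from less RNA per cell.

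Between 3 and 8 h, 3146 of 13008 genes tested rose (24.2%) and 3075 fell (23.6%) at an adjusted p under 0.05 in edgeR's quasi-likelihood test with Benjamini-Hochberg adjustment, in a fit with stimulus and line as blocks. The median log2 change over all genes was -0.01. Of these calls, 315 rises (2.42% of genes tested) and 359 falls (2.76%) were at least 2-fold. All 4 libraries at 8 h lay above all 4 at 3 h for 18% of the genes tested, and below them for 16.6%. The WT libraries, which took no part in this test, moved the same way in both cytokine series for 2375 of the 3146 risers (75.5%) and for 2354 of the 3075 fallers (76.6%). Over all genes tested, 34.9% were higher and 37.1% lower at 8 h than at 3 h in both WT series. With the 4 TNF libraries alone, 1684 genes rose and 1598 fell.

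Induced genes mostly turned down. The WT libraries were used to pick genes at least 2-fold higher at 1 h or at 3 h than at 0 h, on the log2(CPM + 1) scale, in both cytokine series, and these genes were then read in the p53KO lines. Of 269 tested genes that were higher at 3 h in WT, 186 fell between 3 and 8 h in p53KO cells (69.1%, against 23.6% of all genes) and 33 rose (12.3%, against 24.2%), with a median log2 change of -0.82 (quartiles -1.37 and -0.12). Of 141 tested genes that were higher at 1 h in WT, 125 fell (88.7%) and 4 rose, with a median of -1.15. The 4 rises became 1 without the KO-1 library at 3 h of IL-1b and 2 without either the KO-1 library at 8 h of IL-1b or the KO-2 library at 8 h of TNF. Genes that WT cells had lowered by 3 h moved the other way, since 69 of 115 tested rose (60%) and 13 fell (11.3%), with a median of 0.43.

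**Figure D1:**
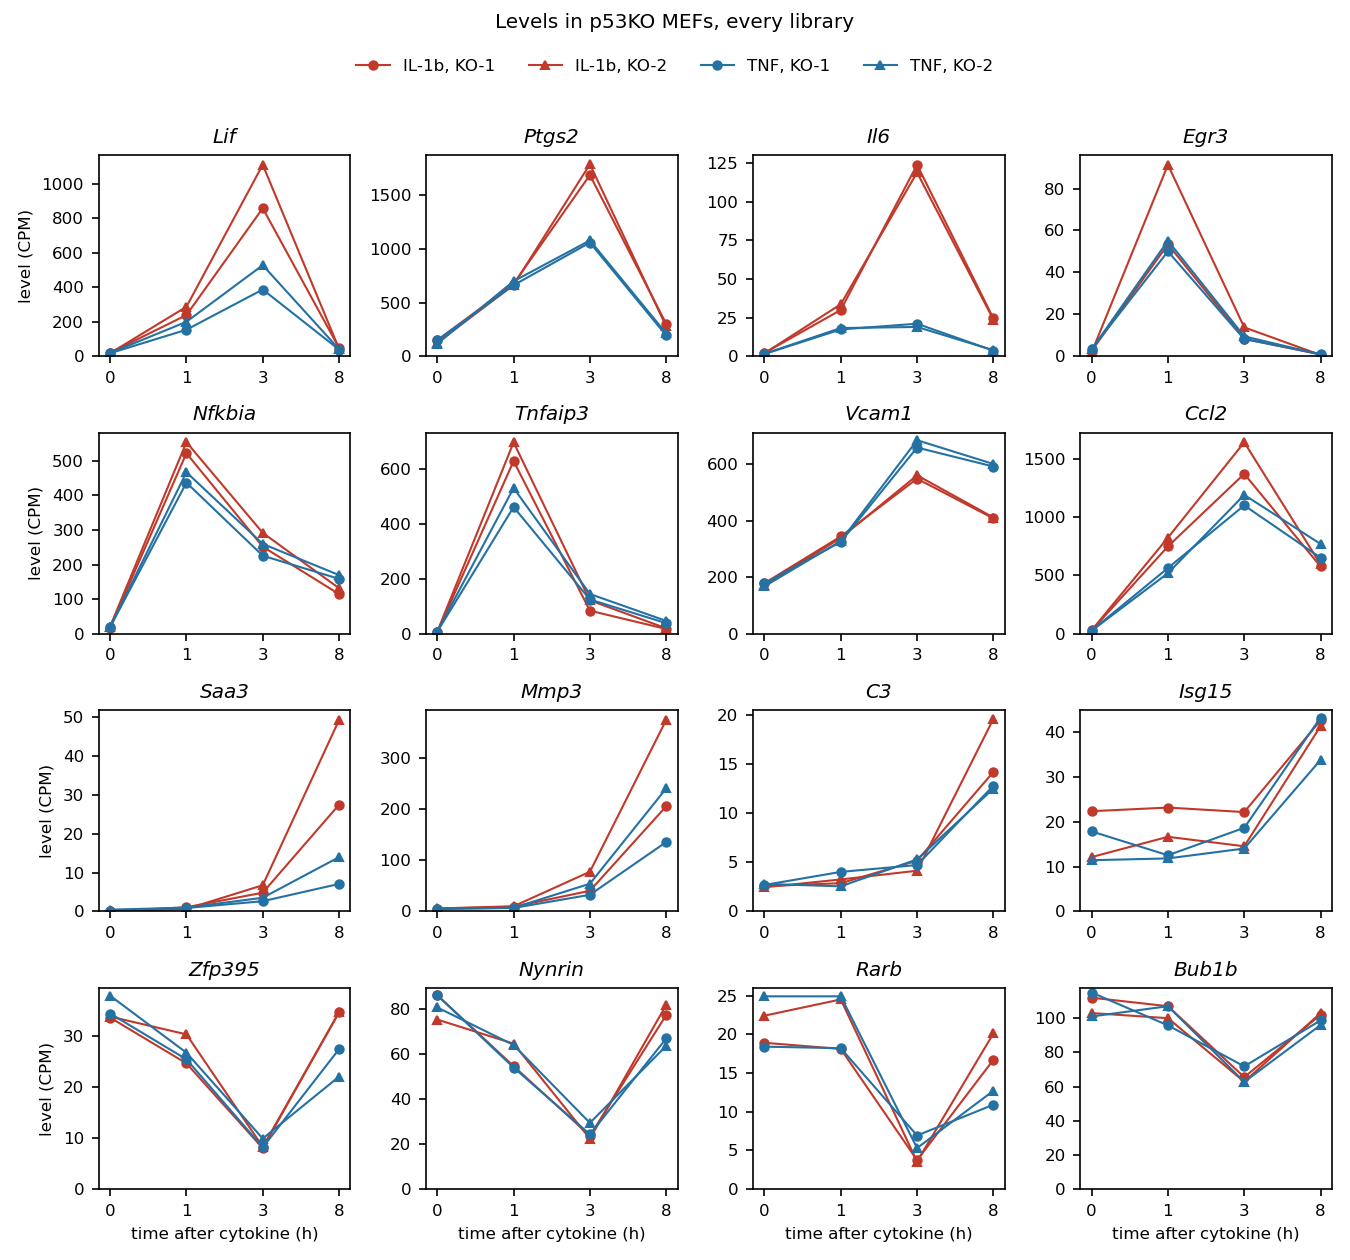
Levels (CPM, linear axis from 0, scaled per gene) of 16 genes against time of cytokine (0, 1, 3 and 8 h, equally spaced) in p53KO MEFs. Red lines are IL-1b and blue lines TNF, circles KO-1 and triangles KO-2, 1 library per point; Lif, Ptgs2, Il6 and Egr3 peaked before 8 h, Saa3, Mmp3, C3 and Isg15 were higher at 8 h than at 3 h, and Zfp395, Nynrin, Rarb and Bub1b were lower at 3 h than at 0 h and rose after it.

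Cytokine genes fell more than most. Of 19 tested cytokine and colony-stimulating factor genes, 12 fell (63.2%, against 23.6% of all genes) and 2 rose (10.5%, against 24.2%). All 12 falls were at least 2-fold, and the median log2 change was -1.28. Lif, an interleukin-6 family cytokine on chromosome 11 (4157560 to 4172517, mm9), had 48.5 and 43.7 CPM with IL-1b and 39 and 41.2 CPM with TNF at 8 h, against 858 and 1110 CPM with IL-1b and 387 and 528 CPM with TNF at 3 h. No 8 h library came near any 3 h library, and the log2 change of -3.96 (SE 0.15, adjusted p = 1.08e-11) was the largest fall among genes of at least 5 CPM that fell in all 4 pairs of stimulus and line. Il6, which encodes interleukin-6 itself, had 24.5 and 23.8 CPM with IL-1b and 3.65 and 3.93 CPM with TNF at 8 h, against 124 and 119 CPM with IL-1b and 21.1 and 19 CPM with TNF at 3 h. Its groups overlapped across the cytokines, with higher levels for IL-1b than for TNF at both times, and within each cytokine they stood apart (log2 change -2.36, SE 0.08, adjusted p = 3.17e-12). Csf1, the growth factor of macrophages, had 297 and 274 CPM with IL-1b and 494 and 520 CPM with TNF at 8 h, against 987 and 1130 CPM with IL-1b and 1150 and 1310 CPM with TNF at 3 h. That is a log2 change of -1.57 (SE 0.10, adjusted p = 4.13e-09) without overlap. Tnfsf15, a TNF family ligand, fell by 2.13 on the log2 scale (SE 0.13, adjusted p = 2.80e-09). Despite these falls, 15 of the 19 genes were higher at 8 h than at 0 h, where 21.1% of all 13147 genes tested were higher and 21.2% lower. Over all 4 pairs, the share of the 3 h increase over 0 h that was still present at 8 h had a median of 3.86% for Lif, 15.8% for Il6 and 19% for Csf1. For Csf1 it was 9.38 and 8.12% with IL-1b and 29.2 and 28.7% with TNF. The interaction term gave a steeper fall with IL-1b for Csf1 (difference -0.63, SE 0.12, adjusted p = 0.00484) and Lif (-0.94, SE 0.15, adjusted p = 0.00166). For Il6 it did not pass (0.09, adjusted p = 0.915).

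Single chemokine genes moved in both directions, and calls of any size in the CXC and CC lists were not far above the shares over all genes. Of 6 tested neutrophil-attracting CXC chemokines, 2 rose and 2 fell, and of 12 tested CC chemokines, 4 rose and 4 fell, which is 33.3% each way in both lists, against 24.2% rises and 23.6% falls over all genes. At least 2-fold, 3 CC chemokines rose and 2 fell, and 2 CXC chemokines fell and none rose. Over all genes, 2.42% rose and 2.76% fell at least 2-fold. Cxcl1 (chromosome 5, 91320267 to 91322141, mm9) had 69.1 and 134 CPM with IL-1b and 6.75 and 11.8 CPM with TNF at 8 h, against 200 and 304 CPM with IL-1b and 28.1 and 39.7 CPM with TNF at 3 h. Within each line and cytokine it was lower at 8 h, by 1.51 on the log2 scale (SE 0.10, adjusted p = 4.88e-09), although the groups overlapped across cytokines. Cxcl2 fell by 1.69 (SE 0.09, adjusted p = 5.44e-10). Of their neighbours in the same gene cluster, Cxcl3 and Ppbp rose, and Cxcl5 was not called over both cytokines (log2 change 0.15, adjusted p = 0.444). Cxcl3 had 6.98 and 10.4 CPM with IL-1b and 6.11 and 9.07 CPM with TNF at 8 h, against 3.85 and 5.81 CPM with IL-1b and 4.73 and 5.98 CPM with TNF at 3 h, a rise of 0.68 (SE 0.14, adjusted p = 0.00104) without overlap. In the fit of TNF alone the rise of Cxcl3 did not pass the test (0.49, adjusted p = 0.114). Ppbp rose by 0.76 (SE 0.23, adjusted p = 0.0123). That call was lost with DESeq2's test (0.79, adjusted p = 0.0925), which leaves 1 riser among the CXC genes. It was also lost in fits of IL-1b alone (0.70, adjusted p = 0.0652) and TNF alone (0.84, adjusted p = 0.126), and without the KO-2 library at 8 h of IL-1b (0.67). Ccl2, which attracts monocytes, had 577 and 595 CPM with IL-1b and 652 and 770 CPM with TNF at 8 h, against 1370 and 1640 CPM with IL-1b and 1100 and 1190 CPM with TNF at 3 h. All 4 libraries were lower at 8 h (log2 change -1.02, SE 0.10, adjusted p = 7.57e-07). Of the increase, 40.8 and 35% remained with IL-1b and 58.4 and 64% with TNF (median 49.6%). Its fall was the steeper with IL-1b (difference -0.69, SE 0.11, adjusted p = 0.00177 for the interaction term). Ccl20, a ligand of CCR6, fell by 2.09 (SE 0.15, adjusted p = 1.82e-08) and Ccl7 by 0.71 (SE 0.09, adjusted p = 9.06e-06). Ccl5 had 8.02 and 17.4 CPM with IL-1b and 15.1 and 22.1 CPM with TNF at 8 h, against 6.05 and 7.94 CPM with IL-1b and 6.69 and 8.16 CPM with TNF at 3 h. It was higher at 8 h in each of the 4 pairs (log2 change 1.09, SE 0.15, adjusted p = 1.74e-05), with the lowest 8 h library just under the highest at 3 h. Chemokine genes have close copies, so reads that match more than 1 of them may be missing from these counts.

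Some genes of NF-kB and its regulators fell, and most were higher at 8 h than at 0 h. Of 24 tested, 11 fell (45.8%, against 23.6% of all genes), 3 rose (12.5%, against 24.2%) and 10 were not called, with a median log2 change of -0.32. At 8 h, 22 were higher than at 0 h, against 21.1% of all genes. Nfkbia, which encodes the inhibitor IkB alpha (chromosome 12, 56590398 to 56593634, mm9), had 115 and 132 CPM with IL-1b and 159 and 170 CPM with TNF at 8 h, against 252 and 292 CPM with IL-1b and 226 and 260 CPM with TNF at 3 h. All 8 h libraries were lower (log2 change -0.84, SE 0.09, adjusted p = 1.38e-06), yet a median of 52.1% of the increase was still present (41.7 and 40.8% with IL-1b, 67.3 and 62.5% with TNF). Tnfaip3 had 17.7 and 20.2 CPM with IL-1b and 38.9 and 47.2 CPM with TNF at 8 h, against 84.4 and 122 CPM with IL-1b and 125 and 145 CPM with TNF at 3 h. No 8 h library reached any 3 h library (log2 change -1.99, SE 0.12, adjusted p = 2.02e-09), with a median of 20.4% of the increase left. The share left was 14.5 and 10.5% with IL-1b and 26.2 and 28.2% with TNF. Tnfaip3 fell further with IL-1b (difference -0.795, SE 0.14, adjusted p = 0.00341 for the interaction term). The subunit gene Nfkb1 had 165 and 173 CPM with IL-1b and 159 and 163 CPM with TNF at 8 h, against 457 and 555 CPM with IL-1b and 360 and 478 CPM with TNF at 3 h, a change of -1.46 (SE 0.07, adjusted p = 2.00e-10) without overlap. Nfkbiz, a nuclear IkB protein that works as a coactivator of Il6, fell by 1.52 (SE 0.06, adjusted p = 2.36e-11) and Bcl3, another nuclear IkB protein, by 0.87 (SE 0.07, adjusted p = 8.84e-08). Among 7 tested genes for proteins that degrade mRNA, 6 fell (85.7%, against 23.6% of all genes) and none rose (against 24.2%). The falls included Zc3h12a (Regnase-1), by 1.64 (SE 0.09, adjusted p = 6.59e-10), and Zfp36 (tristetraprolin), by 1.32 (SE 0.08, adjusted p = 1.39e-09), both of which break down cytokine transcripts.

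Promoter sequence was taken from RefSeq (GRCm38.p6) as the 250 bases before each gene's start and searched on both strands for the kB motif, the DNA element that NF-kB binds. At least 1 match lay in the promoter of 11 of the 21 NF-kB genes for which the table has a promoter (52.4%), and in 4.46% of all 27025 promoters. A match is only a run of letters, and the data do not measure binding. The promoters of Il6 (chr5:30012864-30013113, plus strand), Cxcl1 (chr5:90890995-90891244, plus strand) and Nfkbia (chr12:55492648-55492897, minus strand) are shown because these genes fell by different amounts with a match in each, and capitals mark the kB match. It lay 44 to 35 bases before the start in Il6 and 29 to 20 bases before it in Nfkbia, and in Cxcl1 overlapping matches on both strands spanned 71 to 61 bases before it.
Il6: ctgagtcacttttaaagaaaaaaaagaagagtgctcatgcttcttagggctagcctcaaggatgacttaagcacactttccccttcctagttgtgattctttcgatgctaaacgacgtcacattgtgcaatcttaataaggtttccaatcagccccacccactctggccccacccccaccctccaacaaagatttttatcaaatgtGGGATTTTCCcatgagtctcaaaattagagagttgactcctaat
Cxcl1: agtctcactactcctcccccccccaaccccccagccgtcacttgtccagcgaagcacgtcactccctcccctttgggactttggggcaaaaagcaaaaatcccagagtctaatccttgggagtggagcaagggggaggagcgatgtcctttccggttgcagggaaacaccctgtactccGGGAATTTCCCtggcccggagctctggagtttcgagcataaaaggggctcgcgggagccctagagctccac
Nfkbia: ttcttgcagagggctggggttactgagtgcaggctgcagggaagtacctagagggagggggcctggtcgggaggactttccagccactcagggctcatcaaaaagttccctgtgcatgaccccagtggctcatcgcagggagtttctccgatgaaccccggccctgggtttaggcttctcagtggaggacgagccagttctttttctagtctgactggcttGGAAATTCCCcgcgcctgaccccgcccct

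Immediate early genes, the transcription factors and regulators that cells switch on within minutes of a stimulus without new protein synthesis, fell almost as one group. Of 33 tested, 31 fell (93.9%, against 23.6% of all genes), 20 of them at least 2-fold. None rose, and the median log2 change was -1.2. At 8 h, 12 were still higher than at 0 h (against 21.1% of all genes) and 15 were lower (against 21.2%). Egr3, a zinc finger transcription factor, had 0.833 and 0.644 CPM with IL-1b and 1.12 and 0.855 CPM with TNF at 8 h, against 8.37 and 13.8 CPM with IL-1b and 8.19 and 9.52 CPM with TNF at 3 h. Its 8 h levels also lay below those at 0 h, which gave a negative median of -34.5% for the increase still present. Fosl2 and Maff, both basic leucine zipper factors, fell by 1.24 (SE 0.07, adjusted p = 8.94e-10) and 1.61 (SE 0.08, adjusted p = 3.62e-10). Errfi1, an inhibitor of the EGF receptor, had 102 and 73.9 CPM with IL-1b and 124 and 133 CPM with TNF at 8 h, against 606 and 749 CPM with IL-1b and 608 and 717 CPM with TNF at 3 h, a change of -2.64 (SE 0.12, adjusted p = 1.25e-10). Both cytokines thus gave nearly the same levels at 3 h. Ereg, a ligand of that receptor, fell by 2.61 (SE 0.09, adjusted p = 3.80e-12). MAP kinase phosphatases, which switch MAP kinases off, followed with 6 falls (66.7%) and 1 rise (11.1%, against 24.2% of all genes) among 9. That rise was absent without any one of 5 libraries, namely both 8 h TNF libraries and the KO-2 library of each other group. Dusp5 fell by 2.40 (SE 0.14, adjusted p = 1.81e-09) and Dusp6 by 1.87 (SE 0.11, adjusted p = 1.81e-09), and both act on ERK.

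Contractile genes and other targets of the serum response factor (SRF), which senses free actin through its cofactors, fell without exception among those tested. All 18 fell (against 23.6% of all genes), with a median log2 change of -0.6. At 8 h, 12 were lower than at 0 h (against 21.2% of all genes) while 1 was higher (against 21.1%). Vcl, which encodes vinculin, the link between adhesions and actin (chromosome 14, 21748655 to 21852895, mm9), had 495 and 401 CPM with IL-1b and 668 and 616 CPM with TNF at 8 h, against 1270 and 1270 CPM with IL-1b and 1270 and 1310 CPM with TNF at 3 h. At 0 h it had 665 to 839 CPM, so the 8 h libraries with IL-1b were the lowest of these times (8 h against 3 h, log2 change -1.25, SE 0.09, adjusted p = 1.57e-08). Ccn2, a matrix protein induced by TGF-beta and by stretch, had 426 and 257 CPM with IL-1b and 751 and 682 CPM with TNF at 8 h, against 2120 and 1730 CPM with IL-1b and 2210 and 1870 CPM with TNF at 3 h. It averaged 529 ± 229 CPM at 8 h and 1983 ± 224 CPM at 3 h (SD, n = 4 libraries each; adjusted p = 3.36e-08 in the edgeR fit). Its fall was the steeper with IL-1b (difference -1.03, SE 0.14, adjusted p = 2.19e-04). Ankrd1, a YAP and SRF target, fell by 1.63 (SE 0.12, adjusted p = 1.22e-08) and Myl9, a myosin light chain, by 0.87 (SE 0.07, adjusted p = 3.80e-08). The muscle markers above also summed lower at 8 h than at 3 h. The Vcl promoter (GRCm38.p6, chr14:20929148-20929397, plus strand) is shown because it holds a CArG box, the element that SRF binds, in capitals, 227 to 218 bases before the start. The motif reads alike on both strands and was in 1.62% of all promoters.
Vcl: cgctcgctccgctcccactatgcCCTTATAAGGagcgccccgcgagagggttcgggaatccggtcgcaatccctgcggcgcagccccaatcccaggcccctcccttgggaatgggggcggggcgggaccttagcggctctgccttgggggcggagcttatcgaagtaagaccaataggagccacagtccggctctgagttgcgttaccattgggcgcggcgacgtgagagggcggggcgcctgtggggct

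A smaller set of inflammatory effectors went on rising. Of 17 tested acute phase and complement genes, 8 rose (47.1%, against 24.2% of all genes) and 4 fell (23.5%, against 23.6%). The median log2 change was 0.41. Saa3, an acute phase apolipoprotein made outside the liver (chromosome 7, 53967368 to 53971046, mm9), had 27.5 and 49.3 CPM with IL-1b and 7.1 and 14 CPM with TNF at 8 h, against 4.84 and 6.76 CPM with IL-1b and 2.65 and 3.54 CPM with TNF at 3 h. Every 8 h library lay above every 3 h library, and the log2 change was 2.39 (SE 0.16, adjusted p = 9.38e-09). C3, the central complement component, had 14.2 and 19.6 CPM with IL-1b and 12.8 and 12.5 CPM with TNF at 8 h, against 5.17 and 4.15 CPM with IL-1b and 4.73 and 5.3 CPM with TNF at 3 h. The 8 h libraries all lay above the 3 h libraries, by 1.62 on the log2 scale (SE 0.15, adjusted p = 2.76e-07). Lcn2, an iron-trapping protein, had 7.08 and 17.2 CPM with IL-1b and 0.281 and 0.513 CPM with TNF at 8 h, against 1.32 and 2.25 CPM with IL-1b and 0.115 and 0.272 CPM with TNF at 3 h. It rose by 2.61 (SE 0.25, adjusted p = 3.22e-07), and with TNF it stayed under 1 CPM at both times. The protease inhibitor gene Serpina3f went the other way and fell by 2.04 (SE 0.19, adjusted p = 3.59e-07). It belongs to a cluster of close copies, so its counts are uncertain.

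Genes of matrix-degrading enzymes moved in both directions. Of 24 tested proteases and inhibitors, 11 rose (45.8%, against 24.2% of all genes) and 6 fell (25%, against 23.6%), with a median of 0.16. Mmp3, stromelysin-1 (chromosome 9, 7445822 to 7455972, mm9), had 206 and 375 CPM with IL-1b and 136 and 241 CPM with TNF at 8 h, against 40.5 and 77.8 CPM with IL-1b and 32.7 and 54.4 CPM with TNF at 3 h. All 8 h libraries were above all 3 h libraries, KO-2 was above KO-1 with each cytokine at each time, and the log2 change was 2.21 (SE 0.06, adjusted p = 3.20e-13). Other metalloproteinases, named after their values were seen, rose less. Mmp9 (gelatinase B) rose by 0.87 (SE 0.09, adjusted p = 6.93e-07), Mmp10 by 0.92 (SE 0.12, adjusted p = 1.20e-05) and Mmp13, a collagenase, by 0.88 (SE 0.09, adjusted p = 5.75e-07). Plau (urokinase) had 58.8 and 44.9 CPM with IL-1b and 74.8 and 79.5 CPM with TNF at 8 h, against 178 and 200 CPM with IL-1b and 172 and 190 CPM with TNF at 3 h (log2 change -1.54, SE 0.11, adjusted p = 1.71e-08), a drop to below its 0 h level. Its receptor Plaur fell by 1.41 (SE 0.10, adjusted p = 1.22e-08). The Mmp3 promoter (GRCm38.p6, chr9:7445572-7445821, plus strand) is shown because Mmp3 had the largest rise among the proteases, and capitals mark its match to the AP-1 motif TGACTCA, which lies on the opposite strand 46 to 40 bases before the start. This motif was in 5.16% of all promoters.
Mmp3: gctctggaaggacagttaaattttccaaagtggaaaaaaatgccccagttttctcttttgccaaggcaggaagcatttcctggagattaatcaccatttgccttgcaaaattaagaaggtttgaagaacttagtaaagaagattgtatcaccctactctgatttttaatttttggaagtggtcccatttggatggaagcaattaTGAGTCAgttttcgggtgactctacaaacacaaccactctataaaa

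**Figure D2:**
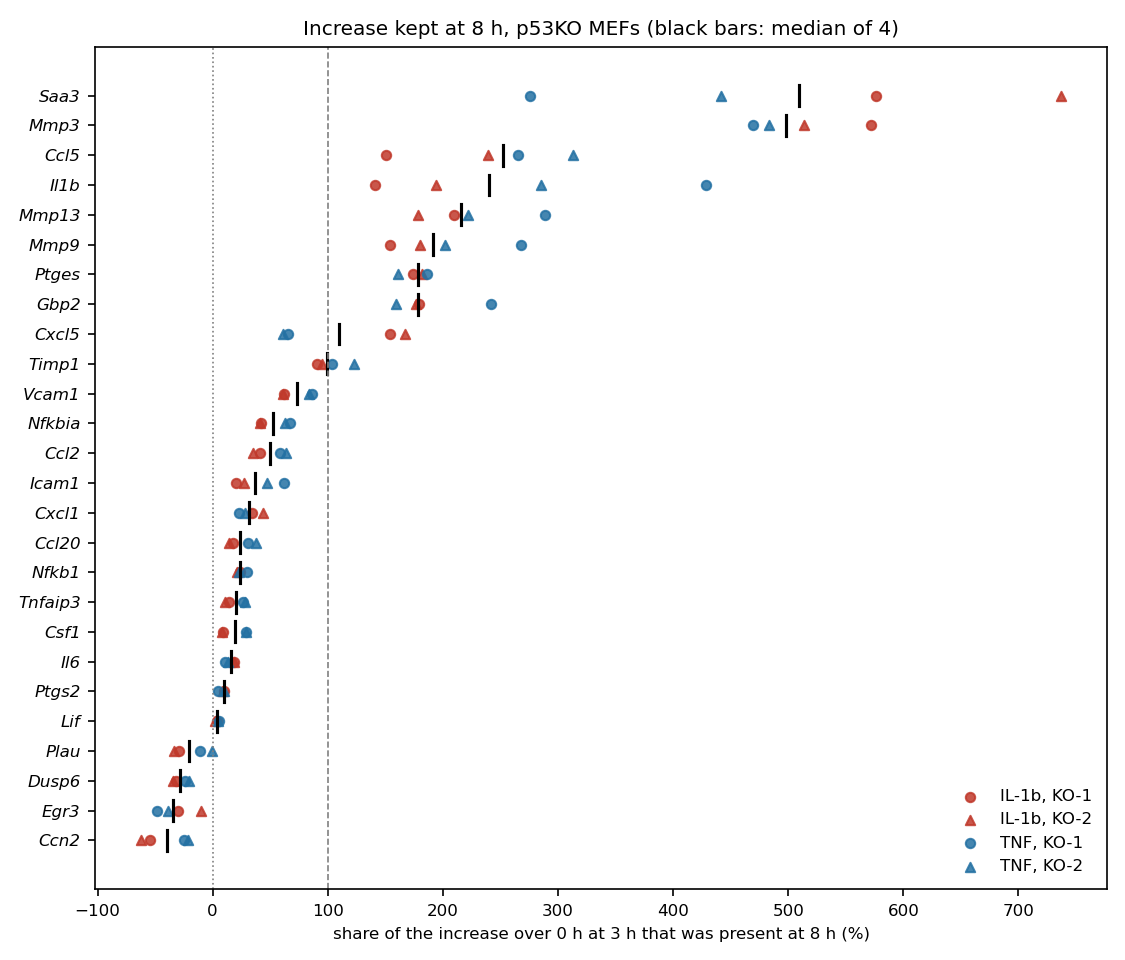
Share of the 3 h increase over 0 h that was still present at 8 h (percent, linear axis) for selected cytokine-induced genes, with 1 point per pair of stimulus and line and a black bar at the median. Values under 0 mean that the 8 h level was below the 0 h level, and values over 100 that it was above the 3 h level; medians ran between -39.4% for Ccn2 and 509% for Saa3.

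Most adhesion and hyaluronan genes fell, while genes of oxidant and lipid mediator enzymes moved both ways. Of 17 tested genes of oxidant, itaconate and prostaglandin enzymes, 6 rose (35.3%, against 24.2% of all genes) and 5 fell (29.4%, against 23.6%). Ptgs2 (cyclooxygenase-2), which starts prostaglandin synthesis, had 302 and 278 CPM with IL-1b and 194 and 213 CPM with TNF at 8 h, against 1690 and 1790 CPM with IL-1b and 1060 and 1080 CPM with TNF at 3 h (log2 change -2.49, SE 0.07, adjusted p = 2.20e-13). The groups were far apart and 9.44% of the increase was left at the median. Ass1, which makes argininosuccinate for arginine synthesis, rose by 1.04 (SE 0.08, adjusted p = 2.35e-08), and Sod2, the mitochondrial superoxide dismutase, by 0.53 (SE 0.06, adjusted p = 2.24e-06). Acod1, which makes itaconate, fell by 0.86 (SE 0.12, adjusted p = 3.04e-05). Of 13 tested adhesion and hyaluronan genes, 10 fell (76.9%) and 2 rose (15.4%), with a median of -0.57, and 11 were above 0 h (against 21.1% of all genes). The 2 rises were 1 without the KO-1 library of either TNF time. Has2, the main hyaluronan synthase of fibroblasts, had 60.1 and 49.4 CPM with IL-1b and 66.6 and 67.1 CPM with TNF at 8 h, against 234 and 231 CPM with IL-1b and 216 and 191 CPM with TNF at 3 h. It had almost returned to its 0 h level (8 h against 3 h, log2 change -1.85, SE 0.09, adjusted p = 2.00e-10). Has1 fell by 2.70 (SE 0.22, adjusted p = 5.05e-08) and Sele (E-selectin) by 2.54 (SE 0.15, adjusted p = 2.04e-09). Vcam1, the ligand of integrin VLA-4, which was named after its values were seen, fell only by 0.30 (SE 0.06, adjusted p = 9.23e-04), with a median of 73% of its increase left. Among 28 tested receptors and adaptors, 6 rose (21.4%, against 24.2% of all genes) and 11 fell (39.3%, against 23.6%). Il1r1, the IL-1 receptor, was down by 1.10 (SE 0.08, adjusted p = 2.65e-08) and Tlr2 by 1.05 (SE 0.08, adjusted p = 1.42e-08).

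Interferon-stimulated genes rose modestly. Of 53 tested, 27 rose (50.9%, against 24.2% of all genes) and 3 fell (5.66%, against 23.6%). Their median log2 change was 0.27, and 42 were higher at 8 h than at 0 h (against 21.1% of all genes). The 3 falls were 5 without the KO-1 library at 3 h of IL-1b. Isg15, a ubiquitin-like protein (chromosome 4, 155573533 to 155574927, mm9), had 42.5 and 41.2 CPM with IL-1b and 43.1 and 33.7 CPM with TNF at 8 h, against 22.1 and 14.5 CPM with IL-1b and 18.6 and 14 CPM with TNF at 3 h. All 8 h libraries were above all 3 h libraries, with a log2 change of 1.22 (SE 0.09, adjusted p = 2.35e-08). The WT libraries had 3.92 and 5.36 CPM at 8 h and 4.38 and 4.94 CPM at 3 h with IL-1b and TNF, all below the p53KO lines. Eif2ak2, the RNA-sensing kinase PKR, had 72.8 and 78.2 CPM with IL-1b and 80.9 and 75.1 CPM with TNF at 8 h, against 42.9 and 40.1 CPM with IL-1b and 45.4 and 47.7 CPM with TNF at 3 h (log2 change 0.81, SE 0.07, adjusted p = 6.98e-08). Its 0 h level lay in between, at 45.9 to 61.3 CPM. Ddx58, the RNA sensor RIG-I, rose by 0.84 (SE 0.08, adjusted p = 5.51e-07) and Stat2, which carries the interferon signal, by 0.77 (SE 0.07, adjusted p = 3.51e-07). Rsad2 (viperin) fell by 1.17 (SE 0.11, adjusted p = 3.77e-07). Of 19 tested antigen presentation genes, 6 rose (31.6%, against 24.2% of all genes) and none fell (against 23.6%), with a median of 0.3. The 6 were 3 without the KO-1 library at 8 h of TNF. Tap1, the peptide transporter, rose by 0.75 (SE 0.15, adjusted p = 4.84e-04). Guanylate-binding, Ifi200 and class I genes have close copies, so their counts are uncertain. The Isg15 promoter (GRCm38.p6, chr4:156200819-156201068, minus strand) is shown because Isg15 had the smallest adjusted p of the list, and capitals mark 3 overlapping matches to the interferon-stimulated response element GAAANNGAAA, 78 to 57 bases before the start. That motif was in 3.46% of all promoters.
Isg15: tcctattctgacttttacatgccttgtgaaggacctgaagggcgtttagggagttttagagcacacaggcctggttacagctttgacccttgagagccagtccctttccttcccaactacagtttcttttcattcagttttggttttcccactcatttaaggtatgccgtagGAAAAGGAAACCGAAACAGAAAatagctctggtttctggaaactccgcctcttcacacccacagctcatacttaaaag

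With LPS these genes changed further. LPS acts through TLR4, which unlike the IL-1 and TNF receptors also signals through TRIF to type I interferon. The signed 8 h against 3 h change differed between LPS and the cytokines for 4.02% of 13226 genes. It was higher with LPS for 399 (3.02%) and lower for 133 (1.01%). A higher change can be a smaller fall, and a lower one a steeper fall. The 399 became 235 without the KO-2 library at 3 h of LPS. The 133 became 49 to 87 without any of 6 libraries (the 4 LPS libraries and the KO-1 library at 3 h of each cytokine) and 220 without the KO-2 library at 8 h of TNF. Without line as a block the fit gave 218 and 32. For interferon-stimulated genes the median change was 1.44 with LPS and 0.27 with the cytokines, and 35 of 53 had a higher change with LPS while 3 had a lower one. For antigen presentation the medians were 1.52 with LPS and 0.3 with the cytokines, and 16 of 19 had a higher change with LPS. Cxcl10, an interferon-induced chemokine, had 2720 and 2340 CPM at 8 h against 1660 and 1450 CPM at 3 h of LPS. With IL-1b it had 42.3 and 41.2 CPM at 8 h against 96.2 and 91.2 CPM at 3 h, and with TNF 83.5 and 71.2 CPM at 8 h against 106 and 109 CPM at 3 h. Both lines were thus higher at 8 h with LPS and lower with each cytokine (LPS minus cytokines 1.53, SE 0.09, adjusted p = 8.02e-11). Herc6, an ISG15 ligase in mouse, had 119 and 113 CPM at 8 h against 19.6 and 18.5 CPM at 3 h of LPS, and its change was larger by 2.47 with LPS (SE 0.15, adjusted p = 8.02e-11). Parp12, a mono-ADP-ribosyltransferase, Lgals3bp and Ly6e gave differences of 1.58, 1.45 and 1.22, and Tapbp, the tapasin of the peptide-loading complex, one of 1.35, all in the same direction. In the opposite direction, 12 of 21 tested sterol synthesis and uptake genes had a lower change with LPS, with a median of -0.52 with LPS and -0.14 with the cytokines.

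**Figure D3:**
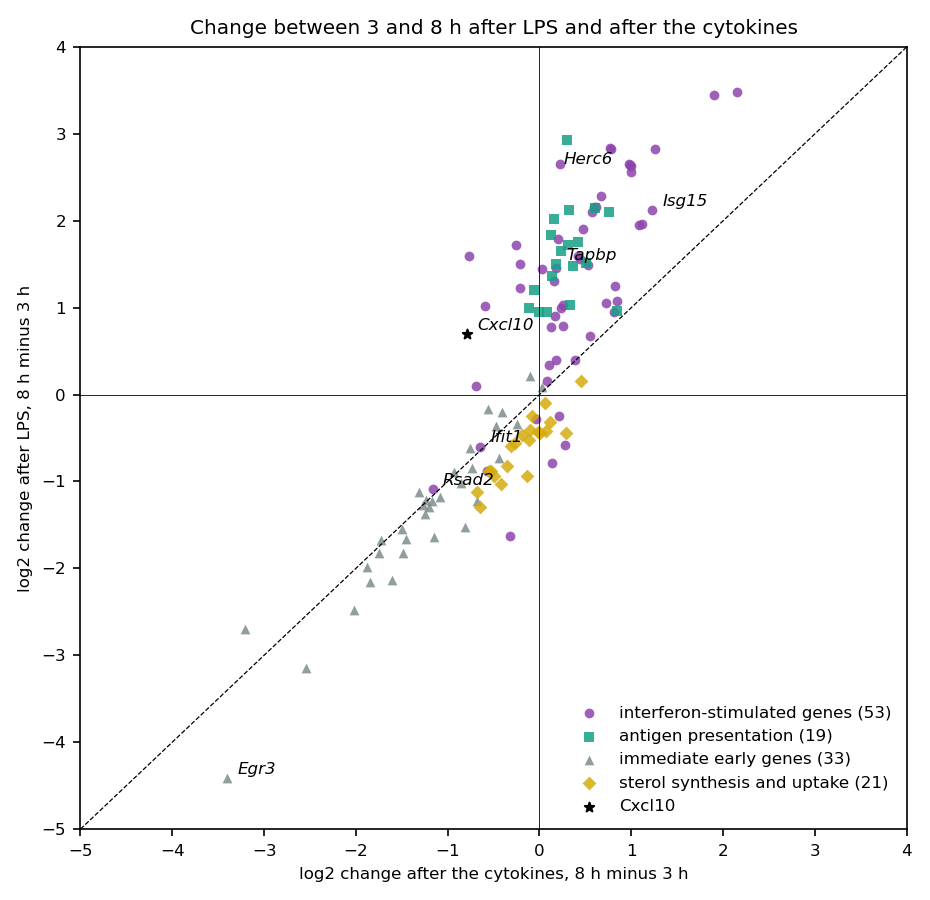
Log2 change between 3 and 8 h with LPS (vertical axis) against the change with the cytokines (horizontal axis) in p53KO MEFs, 1 point per gene, for 53 interferon-stimulated, 19 antigen presentation, 33 immediate early and 21 sterol genes, with Cxcl10 as a star. The dashed diagonal marks equal change; most interferon-stimulated and antigen presentation genes lie above it.

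The cytokines differed for few genes, but Lif, Csf1, Ccl2, Tnfaip3 and Ccn2 above were among them, each with the steeper fall with IL-1b. So was Cxcl10 (IL-1b minus TNF -0.73, SE 0.12, adjusted p = 0.00211 for the interaction term). The signed log2 change between 3 and 8 h was higher with IL-1b than with TNF for 36 of 13008 genes (0.277%) and lower for 95 (0.73%). A lower change can be a steeper fall. These counts depend on single libraries. They were 5 and 9 without the KO-2 library at 3 h of IL-1b, 70 and 222 without the KO-1 library at 8 h of IL-1b, 12 and 26 without the KO-2 library at 8 h of IL-1b, and 62 and 196 without the KO-2 library at 3 h of TNF. The lower side was 48 without the KO-1 library at 3 h of IL-1b and 51 without that at 3 h of TNF. Without line as a block the fit gave 11 and 14. Cxcl5, another neutrophil chemokine, had 319 and 441 CPM at 8 h against 210 and 269 CPM at 3 h of IL-1b, and 40.3 and 53.4 CPM at 8 h against 58.1 and 80.9 CPM at 3 h of TNF. In fits of each cytokine alone it rose with IL-1b (log2 change 0.66, adjusted p = 6.42e-10) and fell with TNF (log2 change -0.55, adjusted p = 3.52e-05). The difference between them was 1.20 (SE 0.11, adjusted p = 1.75e-06). Bnip3, a mitophagy receptor known as a target of hypoxia signalling, had 118 and 123 CPM at 8 h against 26.2 and 29.4 CPM at 3 h of IL-1b, and 48.2 and 57.8 CPM at 8 h against 27.3 and 31.1 CPM at 3 h of TNF. Its levels were alike at 3 h and apart at 8 h, and it rose more with IL-1b (difference 1.25). On the other side, Pdgfb, a chain of platelet-derived growth factor, had 11 and 17.1 CPM at 8 h against 125 and 178 CPM at 3 h of IL-1b, and 27.8 and 32.7 CPM at 8 h against 114 and 150 CPM at 3 h of TNF. It fell with both, and further with IL-1b (difference -1.35, SE 0.15, adjusted p = 9.87e-06, but 0.0715 without line as a block). Rnd1, Ccl20 and F2rl1, the protease-activated receptor 2, gave differences of -1.15, -1.10 and -1.01. In the fit of TNF alone the change of F2rl1 did not pass the test (-0.22, adjusted p = 0.11). Of the 24 tested genes of the NF-kB list, 4 had a higher change with TNF and none with IL-1b, among them Nfkbia (difference -0.60, adjusted p = 0.00279). Other lists did likewise, with 4 of 18 contractile genes and 4 of 33 immediate early genes higher with TNF and none with IL-1b. The same held for 3 of 19 cytokine, 3 of 13 adhesion and 2 of 12 CC chemokine genes, again with none higher with IL-1b. Over all genes, 0.73% had the higher change with TNF.

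**Figure D4:**
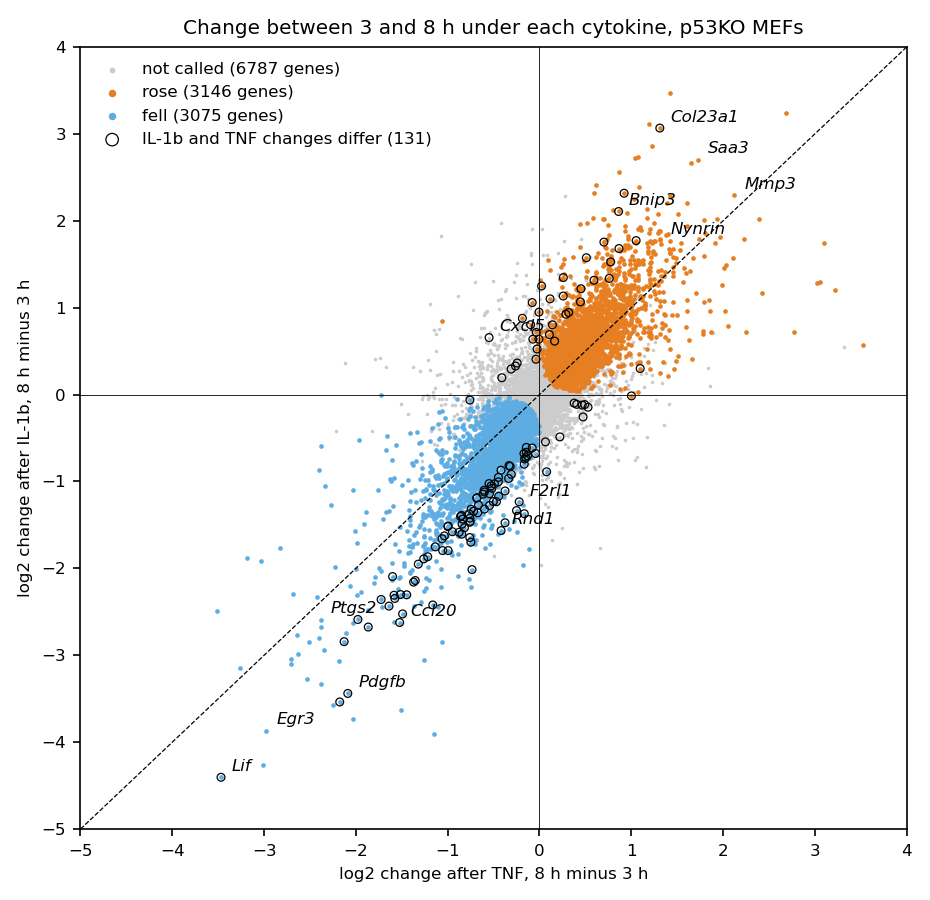
Log2 change between 3 and 8 h with IL-1b (vertical axis) against that with TNF (horizontal axis), 1 point per gene tested, with the 131 genes whose changes differed between the cytokines circled. Most genes lie near the dashed diagonal of equal change, with Cxcl5 and Bnip3 above it and Pdgfb below it.

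A further group of risers had been lower at 3 h than at 0 h. Among the 12 largest rises, Zfp395 had 34.8 and 34.7 CPM with IL-1b and 27.5 and 22.1 CPM with TNF at 8 h, against 8.04 and 8.3 CPM with IL-1b and 8.19 and 9.93 CPM with TNF at 3 h, a change of 1.81 (SE 0.13, adjusted p = 1.09e-08). At 0 h it had 33.7 to 38 CPM, so its level at 8 h was near that before the cytokine. Nynrin had 77.3 and 81.8 CPM with IL-1b and 66.9 and 63.6 CPM with TNF at 8 h, against 23.7 and 22.4 CPM with IL-1b and 24.3 and 29.4 CPM with TNF at 3 h (change 1.55, SE 0.09, adjusted p = 2.02e-09), and 75.3 to 86.1 CPM at 0 h. Tnrc6b, a scaffold of microRNA silencing, had 57.5 and 64.8 CPM with IL-1b and 52.4 and 57.3 CPM with TNF at 8 h, against 18.5 and 19.6 CPM with IL-1b and 21.9 and 19.4 CPM with TNF at 3 h (change 1.55, SE 0.08, adjusted p = 6.91e-10), and 40.9 to 49.5 CPM at 0 h. The retinoic acid receptor gene Rarb rose by 1.61 (SE 0.21, adjusted p = 1.11e-05), Castor2, a relative of the arginine sensor of mTORC1, by 1.54 (SE 0.12, adjusted p = 5.10e-08) and Arhgef19 by 1.72 (SE 0.18, adjusted p = 9.05e-07). The rise of Rarb was 2.32 with IL-1b and 0.92 with TNF (difference 1.395, SE 0.29, adjusted p = 0.0131 for the interaction term). Others among the 12 were not lower at 3 h than at 0 h. The potassium channel gene Kcnq5 had 13.6 and 16.8 CPM with IL-1b and 12.1 and 13.7 CPM with TNF at 8 h, against 3.74 and 4.15 CPM with IL-1b and 4.73 and 3.67 CPM with TNF at 3 h, and 2.81 to 5.15 CPM at 0 h, so its rise of 1.78 (SE 0.14, adjusted p = 5.25e-08) came after 3 h. Col23a1, a membrane collagen, also was not lower at 3 h (mean 1.85 CPM) than at 0 h (1.37 CPM), and rose by 2.27 (SE 0.26, adjusted p = 2.88e-06). Its rise was 3.07 with IL-1b and 1.31 with TNF (difference 1.76, SE 0.42, adjusted p = 0.0346 for the interaction term).

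Genes of DNA replication and mitosis rose by small amounts. Of 42 tested, 27 rose (64.3%, against 24.2% of all genes) and 2 fell (4.76%, against 23.6%). The median was 0.24. Against 0 h, 14 were higher at 8 h (21.1% of all genes were) and 9 were lower, which is near the 21.2% of all genes. Bub1b, a kinase of the spindle checkpoint, had 102 and 103 CPM with IL-1b and 98.7 and 96 CPM with TNF at 8 h, against 65.5 and 62.8 CPM with IL-1b and 71.8 and 62.7 CPM with TNF at 3 h, and 101 to 115 CPM at 0 h. All 8 h libraries were higher than at 3 h (change 0.61, SE 0.06, adjusted p = 8.71e-07) and the level at 8 h was close to that at 0 h. Mcm2, a subunit of the replicative helicase, rose by 0.46 (SE 0.06, adjusted p = 6.52e-06) and cyclin E1 (Ccne1) by 0.51 (SE 0.06, adjusted p = 6.57e-06). E2f8, a repressor of E2F targets, fell by 0.83 (SE 0.08, adjusted p = 3.77e-07). The 2 falls were 1 without the KO-1 library of either TNF time or the KO-2 library at 3 h of TNF.

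The remaining lists are read against the 24.2% of all genes that rose and the 23.6% that fell. Of 21 tested sterol genes, 10 fell (47.6%) and 2 rose (9.52%), with Insig1, the sterol-sensing brake on the pathway, down by 0.68 (SE 0.05, adjusted p = 5.41e-08). The 2 rises were 1 without the KO-1 library at 3 h of IL-1b. Of 19 collagens, 9 fell (47.4%) and 2 rose. Of 20 TGF-beta and BMP feedback genes, 10 fell (50%) and 4 rose, with Id2, an inhibitor of differentiation factors, down by 1.10 (SE 0.08, adjusted p = 9.00e-09). NRF2 targets and metallothioneins gave 7 falls (43.8%) and 1 rise among 16, with Hmox1, heme oxygenase-1, down by 1.12 (SE 0.07, adjusted p = 4.33e-09). That rise was absent without either 3 h IL-1b library or the KO-1 library at 8 h of IL-1b. Of 22 genes of the unfolded protein and ATF4 response, 6 rose (27.3%) and 5 fell (22.7%), both near the shares over all genes. Among its members, Trib3 was up by 0.86 (SE 0.08, adjusted p = 3.80e-07) and Ddit4, an inhibitor of mTORC1, by 0.79 (SE 0.07, adjusted p = 3.19e-07). The 18 clock genes gave 4 rises (22.2%) and 6 falls (33.3%), with Bhlhe40 down by 0.97 (SE 0.08, adjusted p = 3.86e-08). Those 4 rises were 2 without either 3 h IL-1b library. The 29 ribosome biogenesis genes gave 4 rises (13.8%) and 8 falls (27.6%), and 28 were higher at 8 h than at 0 h (against 21.1% of all genes). Those 4 rises were 2 without any one of the TNF libraries. Interferon regulatory factors, STAT and SOCS genes gave 6 rises (28.6%) and 9 falls (42.9%) among 21, with Cish and Socs2, feedback inhibitors of JAK and STAT signalling, down by 1.72 (SE 0.14, adjusted p = 5.41e-08) and 1.48 (SE 0.14, adjusted p = 3.32e-07). Of 23 death and survival genes, 9 fell (39.1%) and 3 rose, with Ripk2, the kinase of NOD receptors, down by 1.00 (SE 0.08, adjusted p = 8.11e-08). Of 6 other chemokines, 3 fell and none rose. Among 16 p53 target genes in these cells labelled p53KO, 6 rose (37.5%) and 4 fell (25%), with Sesn1 up by 0.91 (SE 0.13, adjusted p = 3.35e-05) and Mdm2, the ligase of p53, down by 0.49 (SE 0.07, adjusted p = 1.99e-05).

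**Figure D5:**
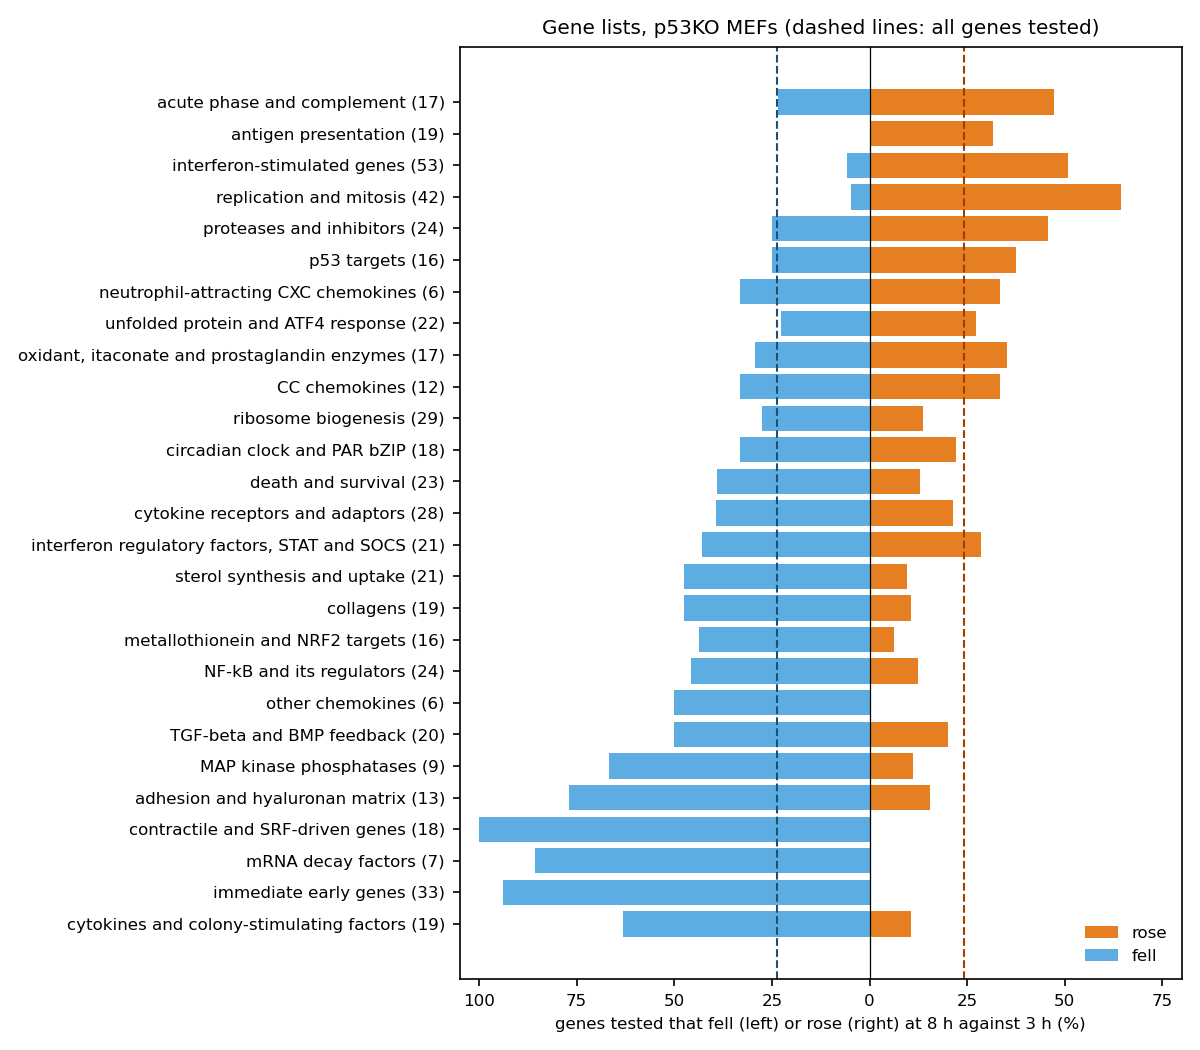
Share of the tested genes of each list, cell type marker lists left out, that rose and that fell between 3 and 8 h of cytokine (percent; bars start at 0), with dashed lines at the shares over all genes tested, 24.2% for rises and 23.6% for falls. Of the lists shown, contractile and immediate early genes have the largest shares of falls, and replication and interferon-stimulated genes the largest shares of rises.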

How the data were processed

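Poly(A) RNA of 45 libraries was sequenced with a stranded kit and paired ends, per the labels' protocols. The authors deposited raw counts per Ensembl gene. Per the submitters' processing notes, the tools included STAR, featureCounts and DESeq and the build was mm9, and the strand setting and annotation release are not given in the sources used here. Of all counts, 23.2 to 25.4% per library fell in 5 categories that name no gene and were left out. Symbols came from GENCODE M21 (32919 of 37991 genes), and promoters from RefSeq, GRCm38.p6. No sequence was converted between builds.

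Genes that reached 1 CPM in 2 or more of the 8 libraries entered an edgeR 4.0.16 quasi-likelihood fit (R 4.3.3, TMM scaling, prior count 0.125) with stimulus, line and time as terms. Degrees of freedom were 4 (residual) and 12.7 (prior), with a biological coefficient of variation of 0.0654. An adjusted p under 0.05 made a call. Some named genes are not reported here. The procedure was tested on simulated data. Interaction terms compared IL-1b with TNF, and LPS with both (12 libraries), and a further fit set 8 h against 0 h. CPM values are TMM-scaled and not divided by length, so levels of different genes were not compared. Genes and lists were chosen with earlier results of these data known. Named genes were the 12 largest rises and falls (at least 5 CPM, same direction in 4 pairs), up to 4 per list by adjusted p, 6 per interaction and Trp53. Other genes were named after their values were seen, namely Vcam1, Mmp9, Mmp10, Mmp13, those first named in the closing section and part of those in the plot of the increase still present.

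The replicate numbers of the labels are those of the lines, except for the KO-2 library at 8 h of IL-1b. Its title gives another number, and it was read as replicate 2 from the name KO-2 in the same title. Deviations of same-numbered libraries from group means correlated by 0.0368 to 0.404 over 6 pairs of groups (10428 genes), with 2 pairs under 0.1. The line was a block in the fit because the titles name KO-1 and KO-2 in every group. Libraries of a group differed by more than counting error (chi-squared 2.56 to 6.08 per degree of freedom). Over 10339 genes, the change correlated with transcript length by 0.0236 and with GC content by 0.0522 (Spearman, across genes). Alternatives were the size factors of DESeq2 1.42.0, its own test, other filters, other blocks, each cytokine alone, all 30 p53KO libraries, another prior count, leaving out each library, and, chosen after seeing the data, offsets for length and GC content.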

Additional observations from a re-analysis of the deposited data

Results flagged for a closer look

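Of the genes named for a different change between 3 and 8 h with IL-1b and with TNF, 6 passed the test of the difference itself (edgeR's interaction term). On the log2 scale, IL-1b minus TNF, the difference was -1.35 for Pdgfb, -1.15 for Rnd1, -1.10 for Ccl20 and -1.01 for F2rl1, where the change with IL-1b was the lower one. F2rl1 did not pass the test with TNF alone (-0.22, adjusted p = 0.11). It was 1.20 for Cxcl5 and 1.25 for Bnip3. Likewise, 6 genes named for a different change with LPS passed that test, with LPS minus cytokines of 2.47 for Herc6, 1.58 for Parp12, 1.53 for Cxcl10, 1.45 for Lgals3bp, 1.35 for Tapbp and 1.22 for Ly6e. These genes were chosen for the smallest adjusted p of these tests, so the differences are a description of the genes at the top of each test. The groups held 2 libraries each, so no group was large enough for a check of single libraries that stand apart.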

How the results depend on the processing

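The line was the replicate block in the main analysis. Of the 6221 calls between 3 and 8 h, 5830 were also made with no replicate block, 6118 with DESeq2 size factors, 4700 with DESeq2's test, 5474 with a stricter filter and 6042 with offsets for length and GC content. With TNF alone 1684 genes rose and 1598 fell, and at least 2-fold changes numbered 315 and 359. Leaving out 1 library gave 2438 to 2967 rises and 2497 to 2961 falls. Against 0 h, it gave 2280 to 2724 higher and 2131 to 2556 lower genes. Differences between IL-1b and TNF numbered 36 and 95 in the main analysis, 19 and 48 with DESeq2, 69 and 200 with no filter and 11 and 14 with no replicate block, and 5 to 70 and 9 to 222 with 1 library left out. Differences with LPS numbered 399 and 133, 253 and 53 with DESeq2, 218 and 32 with no replicate block, and 235 to 446 and 49 to 220 with 1 library left out. The causes were not tested.

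Among named genes, no call changed direction. Of their values that passed no test, Cxcl5 (0.15) was -0.02 and -0.04 without the KO-1 and KO-2 libraries at 3 h of IL-1b (-0.04 to 0.32 over all libraries left out) and -0.55 with TNF alone, where it passed. Tubb3 (0.02) was -0.02 with length and GC offsets and without the KO-2 library at 8 h of TNF, -0.03 without the KO-1 library at 3 h of TNF (-0.03 to 0.1 over all) and -0.09 with IL-1b alone. Sox2 (-0.21) was 0.13 and 0.06 without the KO-2 libraries of IL-1b at 3 and 8 h (-0.45 to 0.13 over all) and 0.34 with TNF alone. Tapbp (0.18) was -0.11 with IL-1b alone and passed the test with TNF alone (0.46, adjusted p = 7.06e-05), with no filter (0.19, adjusted p = 0.0191), with all 30 p53KO libraries (0.15, adjusted p = 0.0444) and without each IL-1b library in turn (0.23 to 0.26). Ly6e (-0.02) was 0 without the KO-2 library at 8 h of IL-1b and 0.05 with TNF alone. Trp53 (0.13) passed the test with IL-1b alone (0.21, adjusted p = 0.0448). H2-K1 (0.24), unlike these, was called as a rise in the main edgeR test (adjusted p = 0.0118). It failed the test with no replicate block (0.23, adjusted p = 0.0687) and with IL-1b alone (0.11, adjusted p = 0.328). The call was also lost without the KO-1 library at 8 h of TNF (0.16) and without the KO-2 library at 3 h of TNF (0.21). Depth limits genes near 1 CPM, such as Lcn2 with TNF.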

Other observations

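Among the 269 tested genes that WT cells had raised by 3 h with both cytokines, the 33 that rose further in p53KO cells included products that act outside the cell, named here after their values were seen. Sod3, the extracellular superoxide dismutase, rose by 0.96 on the log2 scale, Cp (ceruloplasmin), a copper-carrying ferroxidase, by 0.88, Col5a3 by 0.77 and Vegfc, a growth factor of lymphatic vessels, by 0.70. Ccl11 (eotaxin) had 3.54 and 5.9 CPM with IL-1b and 1.9 and 3.76 CPM with TNF at 8 h, against 1.54 and 2.85 CPM with IL-1b and 1.27 and 1.63 CPM with TNF at 3 h, a rise of 1.03 (SE 0.21, adjusted p = 7.71e-04). Il1b, the gene of one of the cytokines given, had 5.73 and 8.05 CPM with IL-1b and 9 and 10.1 CPM with TNF at 8 h, against 4.07 and 4.15 CPM with IL-1b and 2.19 and 3.54 CPM with TNF at 3 h. It rose by 1.23 (SE 0.20, adjusted p = 9.49e-05), with every 8 h library above every 3 h library. In WT with IL-1b it had 0.413 CPM at 8 h against 3.2 CPM at 3 h, and with TNF 4.73 CPM at 8 h against 2.12 CPM at 3 h.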
